A study of Mus musculus with 2 samples.

Results

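The genes described here are 8 regulators of the G1 phase of the cell cycle: the D-type cyclins Ccnd1, Ccnd2 and Ccnd3, their kinases Cdk4 and Cdk6, and the inhibitors Cdkn1a, Cdkn1b and Cdkn1c. They were chosen by name and found by symbol among the 27998 genes of the count matrix, and all 8 had a single row. Their levels were followed across the cell populations of a wild-type mouse islet library.

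The series holds islets of mice with a beta cell specific miR-203 transgene (TG, 1 library) and of wild-type mice (WT, 1 library). Both groups were males aged 8 weeks, killed after a fast of 12 hours, and the labels do not say how many animals gave each library. RNA of single cells was captured in droplets with the 10x Genomics 3′ chemistry and counted as UMIs, unique molecular identifiers that mark 1 captured transcript each. The copy of the TG matrix used here held 547 of 23580133 entries, with 782 UMIs over 81 barcodes and no cell, and of the 8 genes it gave 1 UMI, of Ccnd1. No TG level is given for that reason, the remaining entries being not analysed here, and every result below is from WT islets. With 1 library there is no replicate, so no test across animals was possible, and all intervals are exact 95% intervals that cover counting error only.

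D-type cyclins bind Cdk4 or Cdk6, and the complex phosphorylates the retinoblastoma protein, which releases E2F transcription factors and lets a cell enter S phase. Cdkn1a (p21), Cdkn1b (p27) and Cdkn1c (p57) bind cyclin and kinase complexes and can hold a cell in G1. In the mouse, cyclin D2 and Cdk4 are known to be needed for the growth of beta cell mass after birth, and Cdkn1a is the classical transcriptional target of p53.

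The WT matrix held 118523180 UMIs. Of its barcodes, 4547 had at least 5610 UMIs and 500 genes and were taken as cells, with a median of 21643 UMIs. Cells were grouped by the hormone that filled their UMIs, with limits of 30% insulin (Ins1 and Ins2) for beta, 8% Gcg for alpha, 3% Sst for delta and 8% Ppy for PP cells. This gave 3258 beta cells, 423 alpha cells, 137 delta cells and 117 PP cells. A further 63 cells passed several limits and were kept apart, among them 34 of alpha and PP, and 549 cells passed none. Median depth outside hormone genes was 10348.5 UMIs in beta, 10536 in alpha, 7180 in delta and 10378 in PP cells. Because the hormone genes took a very different share of each cell type, levels are given as counts per 1000000 non-hormone UMIs, written CPM below.

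The hormone labels were set against marker lists of each type, but detection did not tell the groups apart. All 6 alpha, 4 delta and 2 PP markers were detected in all 4 groups. All 10 beta markers were detected in beta and PP cells, and 9 of them, all but Mafa, in alpha and delta cells. The beta, alpha and delta lists also include the hormones used for grouping, and both PP markers are hormone genes. The labels thus rest on the hormone limits. Markers of other cell types were low in all 4 groups, with summed levels of 39.7 to 64.2 CPM for 10 endothelial genes and 127 to 148 CPM for 10 macrophage genes. The 9 acinar markers summed to 161 CPM in delta cells and 58.9 to 81.6 CPM in the other 3 groups. The 7 duct markers summed to 49.9 CPM in beta, 92.2 in alpha, 342 in delta and 409 in PP cells, with Krt19 at 0 in delta and PP cells. The 7 lymphocyte markers summed to 144 CPM in beta cells and to 12.5 to 26.1 CPM in the other 3. The part of these RNAs in the results below was not tested.

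Among the 549 cells without a hormone label, 102 held at least 5 of 10 endothelial markers, 72 held at least 5 of 10 macrophage markers and 18 held at least 3 of 7 lymphocyte markers. These are called endothelial-marker, macrophage-marker and lymphocyte-marker cells, and the limits were chosen after the data were seen. Haemoglobin genes led the endothelial-marker cells by fold, followed by Esm1, Flt1, Nrp1 and Kdr, while Lyz2, Cxcl2 and C1qb led the macrophage-marker cells. The lymphocyte-marker cells were led by Ly6d, Plac8 and the B cell genes Cd79b and Ms4a1. Another 2 cells held 5 mesenchymal markers, 20 held several of these lists and 335 held none, and the last were led by Cck and Gast, with 18.6% insulin among their UMIs. RNA free in the suspension was read from 589592 barcodes of 1 to 200 UMIs, in which insulin made up 34.0% of UMIs.

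The set of RefSeq windows used here (250 bases before the transcription start and 50 after, build GRCm38.p6) held 5 of the 8 genes: Ccnd3, Cdk4, Cdk6, Cdkn1a and Cdkn1b. Ccnd1, Ccnd2 and Cdkn1c, all on the minus strand, had no window in that set. The windows of both kinases are shown because the 2 genes stood highest in different cells, and that of Cdkn1a because p53 target genes were read against it. Each is on the + strand and runs 5′ to 3′. The 3 windows lie at chr10:127063285-127063584 for Cdk4, chr5:3343643-3343942 for Cdk6 and chr17:29090729-29091028 for Cdkn1a. Capitals mark an E-box, CACGTG, in Cdk4 and Cdk6, and the paired core of a p53-type element, CATGNNNNNNCATG, in Cdkn1a.
Cdk4: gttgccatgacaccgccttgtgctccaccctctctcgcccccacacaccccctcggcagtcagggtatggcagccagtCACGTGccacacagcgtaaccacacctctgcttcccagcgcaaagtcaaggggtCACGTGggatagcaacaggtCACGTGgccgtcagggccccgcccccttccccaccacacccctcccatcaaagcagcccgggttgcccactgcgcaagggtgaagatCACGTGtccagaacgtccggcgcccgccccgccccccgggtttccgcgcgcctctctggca
Cdk6: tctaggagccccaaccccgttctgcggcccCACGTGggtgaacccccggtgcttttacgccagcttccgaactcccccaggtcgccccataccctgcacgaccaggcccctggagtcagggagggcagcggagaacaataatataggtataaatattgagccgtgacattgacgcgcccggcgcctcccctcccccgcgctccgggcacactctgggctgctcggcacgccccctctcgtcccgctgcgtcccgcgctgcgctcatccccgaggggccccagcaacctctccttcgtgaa
Cdkn1a: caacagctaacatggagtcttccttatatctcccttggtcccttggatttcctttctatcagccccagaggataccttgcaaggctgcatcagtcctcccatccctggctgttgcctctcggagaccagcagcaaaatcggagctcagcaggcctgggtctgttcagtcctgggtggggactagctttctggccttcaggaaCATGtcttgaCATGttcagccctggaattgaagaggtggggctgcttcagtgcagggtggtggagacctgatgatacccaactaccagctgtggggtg
Cdk4 held 4 E-boxes, 172, 118, 98 and 11 bases before the start, and Cdk6 held 1, 220 bases before it. Of all 32851 windows, 7.15% held at least 1 E-box and 8 windows (0.0244%) held 4 or more. The paired core in Cdkn1a lay 48 bases before the start of the first of its 2 windows, and 0.712% of all windows held one. The search covered both strands of each window, and a match is a match of letters only. Neither TGACGTCA (1.79% of windows) nor TGACTCA (5.2%) was found in the windows of the 5 genes.

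Among the D-type cyclins, Ccnd2 (chromosome 6, 127125162 to 127152193, minus strand in GENCODE M21) was by far the most abundant in every hormone group. It stood at 1043 CPM in beta cells (1033 to 1054, 37615 UMIs), 868 in alpha (842 to 895), 809 in delta (759 to 861) and 655 in PP cells (614 to 699). Endothelial-marker cells had 423 CPM, lymphocyte-marker cells 274 and macrophage-marker cells 214, against 664 in free RNA. In this order the intervals of alpha and delta cells overlapped, as did those of lymphocyte-marker and macrophage-marker cells, and the other neighbours were apart. Relative to PP cells, Ccnd2 in beta cells was 1.59-fold higher (1.49 to 1.70), or 0.67 on the log2 scale, and passed 1.5-fold in 10 of 12 settings. It was under that limit with all UMIs as the denominator (log2 0.31) and relative to the median gene (log2 0.56). Relative to alpha and delta cells it was 1.20-fold (1.16 to 1.24) and 1.29-fold (1.21 to 1.38) higher, under the 1.5-fold limit used here. Those directions depend on the denominator: per 1000000 of all UMIs, hormones included, the log2 ratios of Ccnd2 were as low as -0.45 against alpha and -0.47 against delta cells. Relative to the median gene they were -0.09 against alpha and 0.35 against delta cells.

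Ccnd2 made up 85.4% of the D-cyclin UMIs of beta cells (85.1 to 85.7, 44038 UMIs), 86.3% in alpha, 80.6% in delta and 78.0% in PP cells. The share was 62.4% in endothelial-marker cells (58.3 to 66.3, 574 UMIs) and 71.6% in macrophage-marker cells (65.5 to 77.2, 243 UMIs). Lymphocyte-marker cells had 82.6% (71.6 to 90.7, 69 UMIs). Ccnd1 made up 10.1% in beta cells (9.84 to 10.4) and 8.00% in alpha cells (7.26 to 8.79), and Ccnd3 4.46% (4.27 to 4.66) and 5.68% (5.05 to 6.36). These are shares of UMIs of 3′ ends, which are not divided by transcript length, and differences in capture between the 3 genes were not tested.

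Ccnd1 (chromosome 7, 144929931 to 144939925, minus strand), the cyclin that growth factor signals typically raise, stood at 124 CPM in beta cells (120 to 127, 4458 UMIs), the highest of the 7 populations compared. PP cells had 114 CPM (96.8 to 133), delta cells 92.6 (76.1 to 111) and alpha cells 80.4 (72.7 to 88.7). Endothelial-marker cells had 88.7 CPM, macrophage-marker cells 71.5, and free RNA 101. All neighbours in this order down to the macrophage-marker cells had overlapping intervals, so the order itself is loose. Lymphocyte-marker cells gave 0 UMIs, which allows up to 14.4 CPM. The 335 cells with no marker list, outside this order, had 157 CPM (146 to 168, 801 UMIs), 1.27-fold above beta cells (1.17 to 1.37), and the 2 mesenchymal-marker cells had 413 CPM from 8 UMIs (178 to 813). Beta cells were 1.54-fold above alpha cells (1.39 to 1.71), the only ratio above 1.5 against that group, but per 1000000 of all UMIs the log2 ratio was -0.09, and relative to the median gene 0.26, against 0.62 here.

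Ccnd3 (chromosome 17, 47505051 to 47599691, plus strand), the cyclin known for its role in lymphocyte development, had another order. It stood at 54.5 CPM in beta cells (52.1 to 57.0), 57.1 in alpha (50.6 to 64.2), 102 in delta (84.5 to 121) and 70.6 in PP cells (57.4 to 85.9). Endothelial-marker cells had 167 CPM (140 to 197), 3.06-fold above beta cells (2.56 to 3.63), and lymphocyte-marker cells 57.8 (29.9 to 101). Macrophage-marker cells had 13.6 CPM from 11 UMIs, of which free RNA could account for up to 54.0%. Beta cells were thus lowest among the hormone groups, with an interval that overlapped that of alpha cells, and at 0.536 of delta cells (0.446 to 0.649). The ratio to delta cells passed 1.5-fold in all 12 settings compared.

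**Figure D1:**
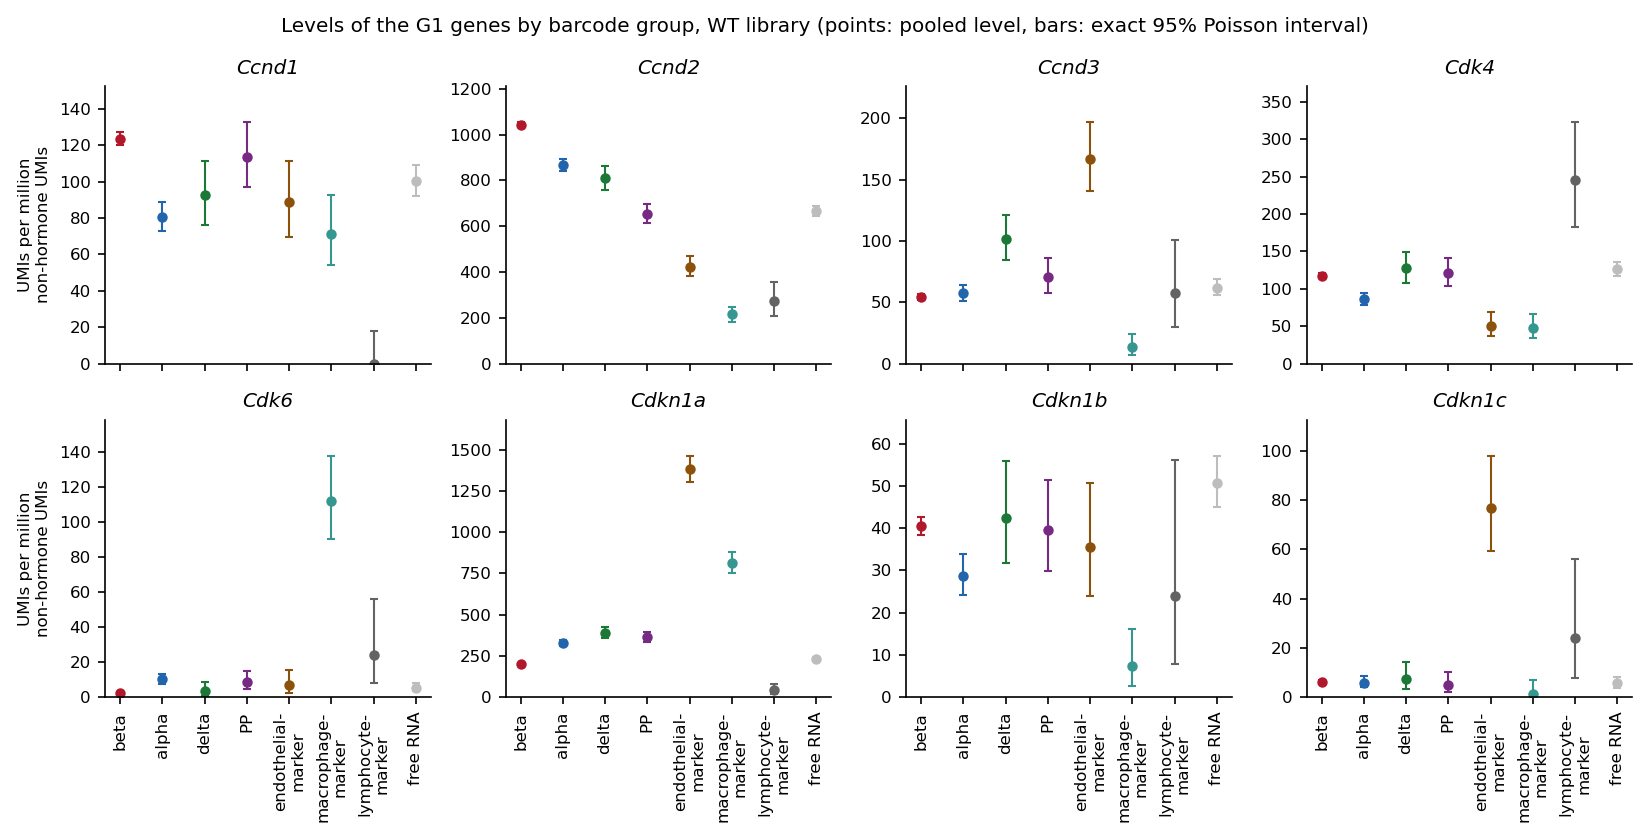
Pooled levels of the 8 genes in each group of barcodes of the WT library, in counts per 1000000 non-hormone UMIs (CPM), 1 panel per gene with its own linear axis from 0. Points are pooled levels and bars exact 95% Poisson intervals; among the groups plotted, Ccnd2 is highest in beta cells at 1043 CPM, Cdk6 in macrophage-marker cells at 112, and Cdkn1a in endothelial-marker cells at 1382. The 2 mesenchymal-marker cells, not plotted, had 155 CPM of Cdk6 from 3 UMIs.

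Of the kinases, Cdk4 (chromosome 10, 127063534 to 127067920, plus strand) was found in all groups and Cdk6 (chromosome 5, 3341485 to 3531008, plus strand) was scarce in beta cells. Cdk4 stood at 118 CPM in beta cells (114 to 121, 4244 UMIs), 86.1 in alpha (78.1 to 94.7), 128 in delta (108 to 149) and 121 in PP cells (104 to 141). Lymphocyte-marker cells had the highest level, 246 CPM (183 to 323, 51 UMIs), and endothelial-marker and macrophage-marker cells the lowest, 50.9 and 48.1, against 126 in free RNA. The ratio of beta to delta cells (0.785 to 1.09) and to PP cells (0.832 to 1.14) had an interval that includes 1, and beta cells were 1.37-fold above alpha cells (1.24 to 1.51), a direction that the denominator of all UMIs turned (log2 -0.26).

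Cdk6 gave 76 UMIs in 3258 beta cells, or 2.11 CPM (1.66 to 2.64). Alpha cells gave 50 UMIs, or 10.1 CPM (7.52 to 13.4), PP cells 12 UMIs, or 8.47 (4.38 to 14.8), and delta cells 4 UMIs, or 3.34 (0.909 to 8.54). These levels lie under the floor of 20 CPM used for the counts below, yet beta cells were at 0.208 of alpha (0.144 to 0.304) and 0.249 of PP cells (0.134 to 0.503). The interval against delta cells, 0.237 to 2.38, spans both directions. Beta cells also lay below free RNA, which had 5.47 CPM, at a ratio of 0.386 (0.2497 to 0.610). Free RNA, bounded by the Gcg UMIs in beta cells and the insulin UMIs in alpha cells, could make up at most 32.2% of the Cdk6 UMIs in beta and 4.03% in alpha cells.

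In macrophage-marker cells Cdk6 reached 112 CPM (90.3 to 138, 91 UMIs), 53.2-fold above beta cells (38.8 to 73.1). There Cdk6 supplied 70.0% of the UMIs of both kinases (61.3 to 77.7, 130 UMIs), against 1.76% in beta cells (1.39 to 2.20, 4320 UMIs). Lymphocyte-marker cells had 24.1 CPM from 5 UMIs and endothelial-marker cells 7.10 from 6 UMIs. Part of the few Cdk6 UMIs of the beta group lay in cells that also held RNA of another class. In the 30 beta cells with at least 5 markers of endothelial, macrophage or acinar cells, Cdk6 had 30.7 CPM (12 UMIs), against 1.79 CPM (64 UMIs) in the other 3228. Cdkn1a had 401 CPM in the same 30 cells and 201 CPM in the others.

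The inhibitors were led by Cdkn1a (chromosome 17, 29090976 to 29100727, plus strand), which was lower in beta cells than in each of the other endocrine groups. It stood at 204 CPM in beta cells (199 to 208, 7343 UMIs), 328 in alpha (312 to 345), 391 in delta (356 to 428) and 364 in PP cells (333 to 397). Free RNA had 232 CPM. The alpha, PP and delta intervals overlapped from neighbour to neighbour, while beta cells stood below all 3. The ratio was 0.621 to alpha (0.588 to 0.655), 0.521 to delta (0.474 to 0.573) and 0.559 to PP cells (0.511 to 0.612), and each passed 1.5-fold in all 12 settings compared. Endothelial-marker cells had 1382 CPM (1304 to 1463), 6.78-fold above beta cells (6.37 to 7.22), and macrophage-marker cells 813 (752 to 878), 3.99-fold above (3.68 to 4.32). The endothelial-marker cells also held 1895 CPM of the 10 mesenchymal markers, against 14.8 in macrophage-marker and 9.82 in beta cells. The part of that RNA in their levels of Cdkn1a, and of Ccnd3 and Cdkn1c, was not tested. Lymphocyte-marker cells were lowest, with 43.3 CPM from 9 UMIs.

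Cdkn1b (chromosome 6, 134920401 to 134925513, plus strand), an inhibitor controlled largely through the stability of its protein, was lowest in alpha cells among the hormone groups. The alpha interval overlapped those of delta and PP cells. It stood at 40.5 CPM in beta cells (38.5 to 42.7), 28.8 in alpha (24.2 to 33.9), 42.5 in delta (31.7 to 55.9) and 39.5 in PP cells (29.9 to 51.3), against 50.8 in free RNA. Beta cells were 1.41-fold above alpha cells (1.19 to 1.69), a direction that turned per 1000000 of all UMIs (log2 -0.22). The 95% intervals of the ratio to delta (0.721 to 1.29) and PP cells (0.785 to 1.36) include 1. Macrophage-marker cells had 7.39 CPM from 6 UMIs, of which free RNA could supply 81.3%.

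Cdkn1c (chromosome 7, 143458339 to 143461050, minus strand), an imprinted gene known for its loss in focal forms of human hyperinsulinism, was scarce in all hormone groups. It stood at 6.13 CPM in beta cells (5.35 to 6.99, 221 UMIs), 5.87 in alpha, 7.50 in delta and 4.94 in PP cells, against 5.65 in free RNA. None of the ratios of beta cells to the other 3 groups had an interval that left out 1. Endothelial-marker cells, which also held mesenchymal marker RNA, had 76.9 CPM (65 UMIs), 12.5-fold above beta cells (9.36 to 16.6).

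Across all 3 contrasts, 6 of the 8 genes reached the floor of 20 CPM in either group, Cdk6 and Cdkn1c being the exceptions. Between beta and alpha cells, 1 of 6 (Ccnd1) was at least 1.5-fold higher in beta cells, where 33.9% of 6707 genes at the floor were, and 1 of 6 (Cdkn1a) was lower, against 8.53% of genes (42.4% either way). Between beta and delta cells, 0 of 6 were higher, against 18.7% of 7095 genes, and 2 of 6 (Ccnd3 and Cdkn1a) were lower, against 16.3% (35% either way). Between beta and PP cells, 1 of 6 (Ccnd2) was higher, against 20.2% of 6846 genes, and 1 of 6 (Cdkn1a) was lower, against 11.2% (31.4% either way). The median log2 ratio of the 6 genes was 0.36 against alpha, -0.09 against delta and -0.00 against PP cells, beside 0.36, 0.02 and 0.11 over all genes at the floor. With all UMIs as the denominator the split was 0 higher and 2 lower against alpha, 0 and 4 against delta, and 0 and 2 against PP cells, where Ccnd3 was then also lower (log2 -0.74). With 6 genes these counts do not set the group apart from other genes.

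**Figure D2:**
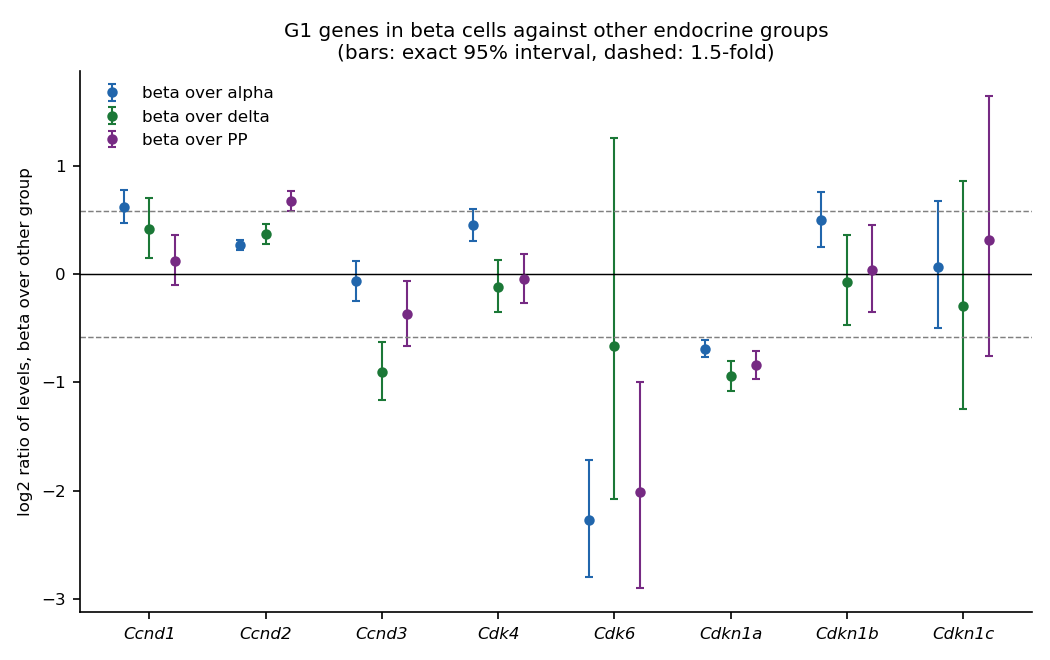
Log2 ratio of the pooled level in beta cells over alpha, delta and PP cells for the 8 genes of the WT library, with exact 95% intervals; dashed lines mark 1.5-fold. Cdkn1a lies below the lower line in all 3 contrasts (0.621, 0.521 and 0.559), and the intervals of Cdk6 and Cdkn1c are wide because they rest on few UMIs.

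Genes on the opposite strand cover the 3′ ends of 4 of the 8 genes, and whether counting used strand is not given in the sources used here. Tspan31 overlaps Cdk4 over 641 bases and had 2735 UMIs of its own in beta cells, Oraov1 (named LTO1 in GENCODE) overlaps Ccnd1 over 1771 bases with 593, Bysl overlaps Ccnd3 over 361 bases with 471, and Gm43126 overlaps Ccnd2 over 994 bases with 8. The share of misassigned UMIs in Cdk4, Ccnd1 and Ccnd3 was not tested. No such gene covers the 3′ ends of Cdk6, Cdkn1a, Cdkn1b or Cdkn1c.

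Within beta cells, the insulin share of a cell's UMIs was followed in 4 bins, 30 to 40% (471 cells), 40 to 50% (1057), 50 to 60% (1339) and 60% and more (391). Ccnd1 declined over the bins, with 138, 127, 120 and 107 CPM. Cdk4 climbed, with 98.3, 116, 123 and 132 CPM. The highest bin over the lowest gave a ratio of 0.777 for Ccnd1 (0.691 to 0.873) and of 1.34 for Cdk4 (1.19 to 1.51). Cdkn1a had 222, 205, 201 and 181 CPM (ratio 0.815, 0.744 to 0.892) and Ccnd3 had 60.8, 55.9, 52.0 and 49.98 (ratio 0.822, 0.689 to 0.977). Cdkn1c had 3.81, 4.89, 7.51 and 8.25 CPM, a ratio of 2.16 (1.24 to 3.85) that rests on 23 UMIs in the lowest bin and 34 in the highest. Cdk6 had 4.64, 2.06, 1.19 and 1.70 CPM, a ratio of 0.366 (0.135 to 0.857) from 28 UMIs in the lowest bin and 7 in the highest. The ratio was 0.859 for Cdkn1b (0.698 to 1.05). Ccnd2 was flat, with 1080, 1027, 1042 and 1040 CPM (ratio 0.963, 0.926 to 1.00).

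The mitochondrial share of UMIs fell over the same bins, with 4.73%, 3.72%, 2.89% and 2.13%, and median depth differed, with 21530, 20992, 24513 and 34322 UMIs. With mitochondrial UMIs also left out of the denominator, the log2 ratios were -0.38 for Ccnd1, 0.41 for Cdk4, -0.31 for Cdkn1a and 1.09 for Cdkn1c, against -0.36, 0.43, -0.30 and 1.11 with them. Split by the mitochondrial share of non-hormone UMIs instead, the top quartile of beta cells had 170 CPM of Cdkn1a and the bottom quartile 243, a ratio of 0.701 (0.655 to 0.750). That ratio was 0.818 for Cdk4 (0.749 to 0.892), 1.18 for Ccnd1 (1.09 to 1.29) and 0.499 for Cdkn1c (0.316 to 0.771). For Ccnd3 it was 1.02 (0.897 to 1.16). Split by depth, the top quartile had 1144 CPM of Ccnd2 and the bottom quartile 959 (ratio 1.19, 1.16 to 1.23). The depth ratio was 1.19 for Cdk4 (1.08 to 1.31), 0.898 for Ccnd1 (0.823 to 0.979) and 1.09 for Cdkn1a (1.02 to 1.17). Outside hormone genes, median depth over the insulin bins was 12750, 10131, 9876 and 10816 UMIs. The mitochondrial share moves with the insulin share, and its part in these values was not tested.

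**Figure D3:**
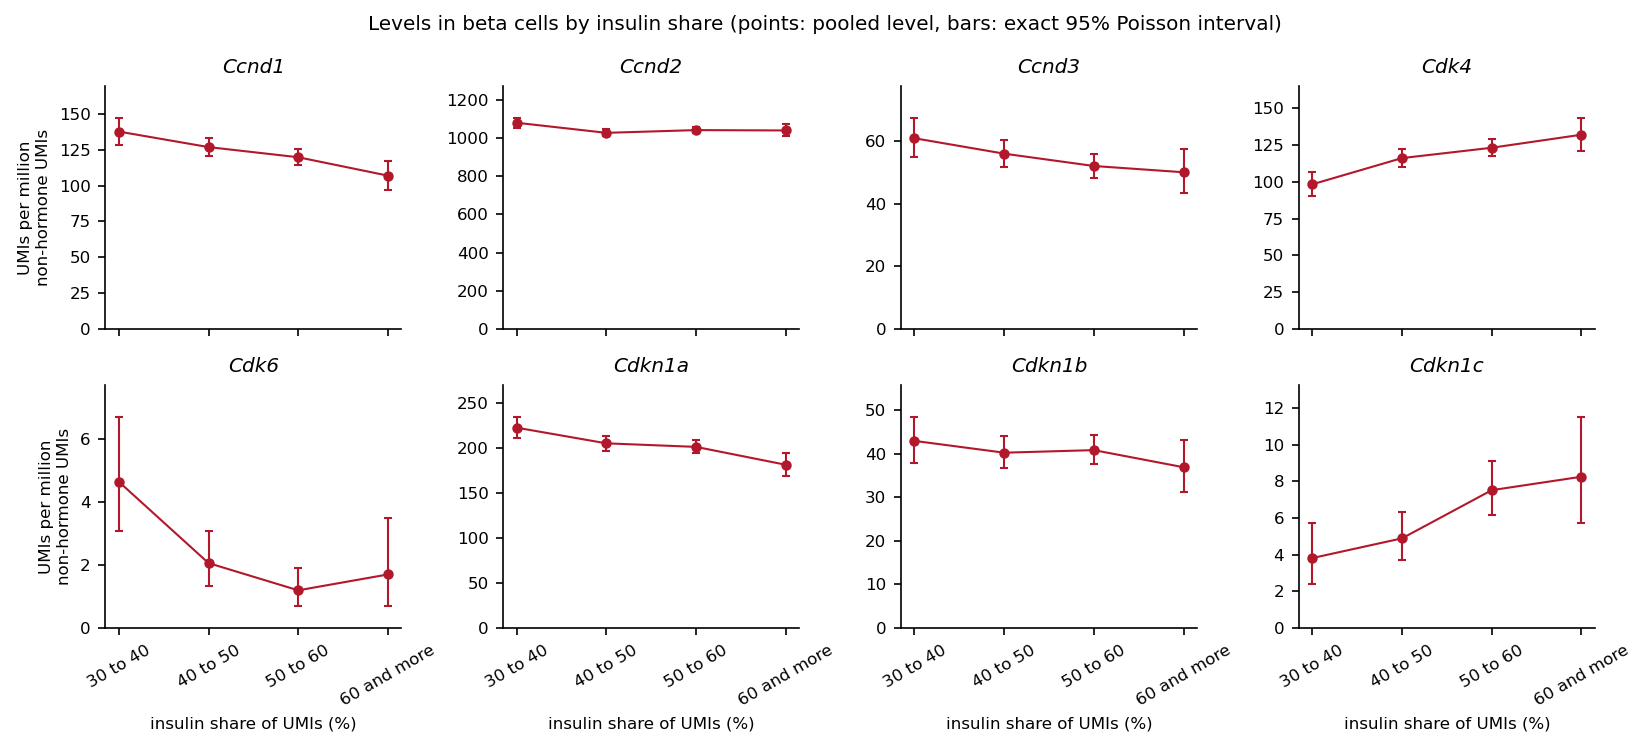
Pooled levels of the 8 genes in WT beta cells by insulin share of UMIs (horizontal axis, percent), in counts per 1000000 non-hormone UMIs (CPM) with exact 95% Poisson intervals, each panel with its own linear axis from 0. Ccnd1 has 138, 127, 120 and 107 CPM over the bins and Cdk4 98.3, 116, 123 and 132, while Ccnd2 stays between 1027 and 1080.

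To compare single cells at equal depth, each cell was thinned at random to 3000 non-hormone UMIs, which left out 47 of 3258 beta cells and 1 of 117 PP cells. After thinning, 92.8% of beta cells had a Ccnd2 UMI (99.6% before), 38.6% a Cdkn1a UMI (73.7%), 30.1% a Ccnd1 UMI (67.4%) and 29.6% a Cdk4 UMI (68.8%). Ccnd3 was seen in 15.4% (43.1% before), Cdkn1b in 11.6% (34.6%), Cdkn1c in 1.71% (5.23%) and Cdk6 in 0.747% (2.06%). For comparison, Cdk6 was seen in 3.07% of alpha cells (9.22% before) and 33.3% of macrophage-marker cells (56.9% before), at median non-hormone depths of 10536 and 10396.5 against 10348.5 UMIs in beta cells. The shares count cells with a UMI and not cells expressing the gene. The level in beta cells over that in free RNA was below 1 not only for Cdk6 but also for Cdkn1a (0.878, 0.827 to 0.933), Cdkn1b (0.797, 0.701 to 0.909) and Ccnd3 (0.880, 0.784 to 0.990), and for Cdk4 it was 0.934 (0.861 to 1.01). Bounded by Gcg, free RNA could supply up to 7.91% of the beta cell UMIs of Ccnd2, 10.1% for Ccnd1, 11.4% for Cdkn1c, 13.3% for Cdk4, 14.1% for Ccnd3 and Cdkn1a and 15.6% for Cdkn1b.

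Over the thinned beta cells, the variance of Cdk4 was 1.00 times its mean, the value that random sampling of a constant level gives. The ratio was 1.03 for Cdkn1b and Ccnd3, 1.09 for Ccnd1, 1.34 for Ccnd2 and 1.58 for Cdkn1a. For the same spread of a gene between cells this ratio grows with the mean, so the genes are not ranked by it. At the mean of Cdk4, 0.353 UMIs per cell, a value of 1.00 does not show a constant level. Over the insulin bins above, Cdk4 ran from 98.3 to 132 CPM. Random sampling at the mean of Cdkn1a would give a UMI to 44.9% of beta cells, against the 38.6% seen, and the tenth of cells with most Cdkn1a held 46.7% of its UMIs. The variance of Cdkn1a was 1.65 times its mean in alpha, 1.78 in delta and 1.28 in PP cells, and in PP cells 62.1% had a UMI, against 65.7% under random sampling. Pearson correlations between the genes over the 3211 thinned beta cells were all weak and are not read further.

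**Figure D4:**
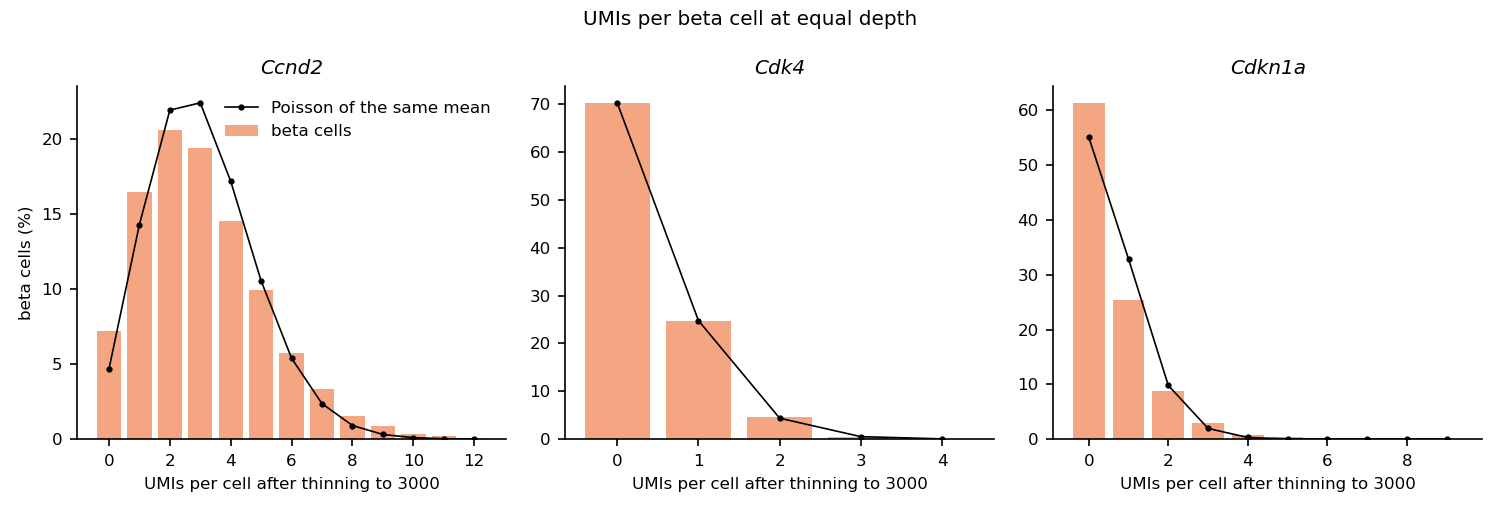
Share of WT beta cells (vertical axis, percent) by UMIs per cell of Ccnd2, Cdk4 and Cdkn1a after thinning to 3000 non-hormone UMIs, n = 3211 cells; black dots give a Poisson distribution of the same mean. Cdk4 follows the dots, which at its mean of 0.353 UMIs does not show a constant level. Cdkn1a has more cells at 0 UMIs (61.4%) and a longer tail, up to 9 UMIs.

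Cells were then grouped by their thinned Cdkn1a count, a division made after the data were seen. Of the beta cells, 1971 had 0 UMIs, 1096 had 1 or 2 and 144 had 3 or more, of which 94 had exactly 3; the class is a range of counts and not a cell type. Median depth was 23478 UMIs in the cells with 3 or more and 23794 in those with 0, insulin made up 50.7% and 51.8% of UMIs, and mitochondrial genes 2.98% and 3.23%. At least 5 macrophage markers were present in 1 of the 144 and 7 of the 1971 cells, and at least 5 endothelial markers in 2 and 1.

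Some of the genes that p53 is known to switch on were higher in the beta cells with 3 or more Cdkn1a UMIs. Of 16 listed p53 targets, 13 were at the floor, and 4 were at least 1.5-fold higher and 0 lower, beside 1.16% and 0.856% of 6658 genes at the floor. Phlda3 and Plk2 reached the floor of 20 CPM only through the cells with 3 or more, so the count is not read as support. Phlda3, a p53-induced inhibitor of Akt signalling, stood at 51.0 CPM (40.6 to 63.4) in the cells with 3 or more and 5.05 CPM (4.15 to 6.08) in those with 0. Its ratio was 10.1 (7.50 to 13.6). Cells with 1 or 2 Cdkn1a UMIs lay between, at 8.41 CPM.

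The other 3 were Plk2, a kinase induced by stress, Ccng1, which encodes cyclin G1, and Aen, a nuclease induced by p53. Plk2 had 39.8 CPM against 13.6 (ratio 2.92, 2.19 to 3.83), Ccng1 had 127 against 57.1 (2.22, 1.91 to 2.58) and Aen had 57.3 against 32.4 (1.77, 1.41 to 2.20). Below the floor, Gdf15, a secreted stress factor, had 8.72 CPM against 2.05. Mdm2, the ubiquitin ligase that limits p53, had 71.6 against 57.1 (1.25, 1.03 to 1.52), and Bax, which promotes apoptosis, 174 against 141 (1.23, 1.083 to 1.39), both under 1.5-fold. Ratios of the remaining targets at the floor ran from 0.932 for Zmat3 to 1.27 for Trp53inp1. Bbc3 and Sesn1 were also lower, at 0.951 and 0.953. Genes outside the list differed too. Fos had 1348 CPM (1292 to 1406) against 972 (959 to 985), Egr1 938 against 813 and Atf3 176 against 146. Ddit3 had 1086 against 1128. The part of such responses in these classes was not tested. Of the other G1 genes at the floor, 0 of 5 differed by 1.5-fold either way, beside 1.16% of all genes higher and 0.856% lower. That count does not set the 5 apart from other genes. The ratio of Ccnd2 was 1.02 (0.974 to 1.07). Plk2 had 362 CPM in endothelial-marker, 171 in macrophage-marker and 15.3 in all beta cells, and Gdf15 had 56.8, 62.8 and 2.61. Phlda3 had 42.6, 2.46 and 8.26, while Ccng1 and Aen were lower in both classes than in beta cells. Leaving out beta cells with at least 5 markers of another class is among the alternatives for the target count in the closing section. Cells with fewer such markers stayed in, and the part of this RNA in the single ratios above was not tested. The Phlda3 ratio was 4.92 with a limit of 2 Cdkn1a UMIs (425 cells) and 19.4 with a limit of 4 (50 cells), and 7 of 13 targets were then higher at the limit of 4, against 5.97% of genes. Genes could again reach the floor only through the cells with more Cdkn1a, so that count is not read as support either.

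In alpha cells Phlda3 and Ccng1 had the same direction. Among them, 51 had 3 or more thinned Cdkn1a UMIs and 197 had 0. Of 12 p53 targets at the floor, 6 were at least 1.5-fold higher and 1 (Sesn2) lower, beside 8.74% and 7.32% of 5915 genes. Here Phlda3 and Zmat3 (33.5 against 19.1 CPM) reached the floor only through the cells with 3 or more, so this count is not read as support either. Phlda3 had 44.7 CPM in the cells with 3 or more against 8.51 in those with 0 (ratio 5.25, 2.78 to 10.0), and Ccng1 had 119 against 52.8 (2.26, 1.64 to 3.08). Aen, Mdm2, Sesn1 and Zmat3 were higher with ratios of 1.88, 1.61, 1.69 and 1.75, though the intervals of Zmat3 (0.954 to 3.09) and Sesn2 (0.323 to 1.077) include 1, while Plk2 had 13.0 against 18.7 CPM from 7 UMIs. Ratios of the remaining targets at the floor ran from 0.811 for Btg2 to 1.43 for Bax, with Trp53inp1 at 0.882. The difference between alpha and beta cells in Plk2 was not tested.

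**Figure D5:**
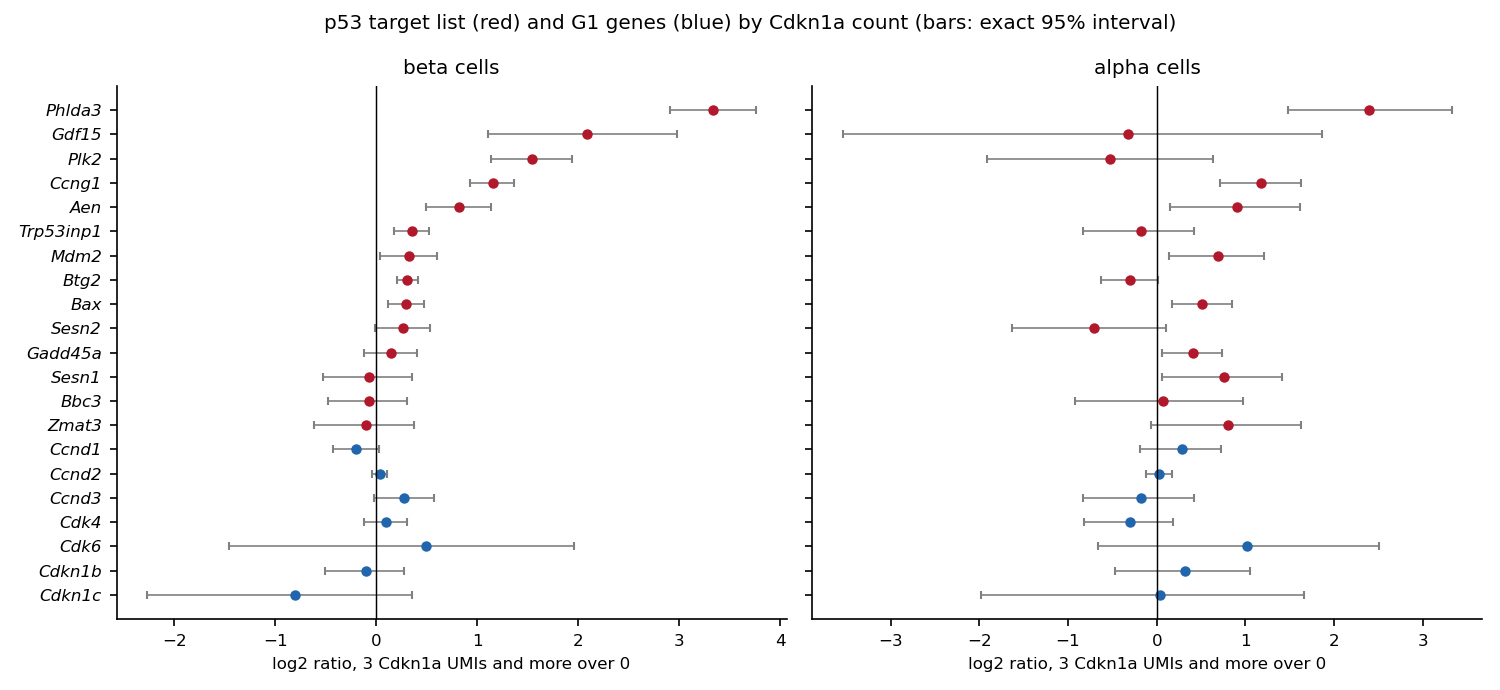
Log2 ratio of pooled levels in cells with 3 or more thinned Cdkn1a UMIs over cells with 0, for genes of the p53 target list (red) and the other G1 genes (blue), in WT beta cells (left, 144 and 1971 cells) and alpha cells (right, 51 and 197 cells). Points are ratios and bars exact 95% intervals. Among the genes plotted, Phlda3 is farthest to the right in both panels, and Ccnd2 lies near 0. Eda2r and Pmaip1 are not plotted. Eda2r had ratios of 27.4 in beta and 8.76 in alpha cells, from 2 UMIs in the cells with 3 or more, and Pmaip1 had 0 UMIs there.

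Between beta and alpha cells, 4 of 11 p53 targets at the floor were at least 1.5-fold higher in beta cells and 1 was lower, near the 33.9% and 8.53% of all genes. Their median log2 ratio was 0.05, beside 0.36 over all genes. Trp53inp1, a p53-induced stress protein, had 146 CPM in beta and 54.1 in alpha cells (ratio 2.71), and Btg2, an antiproliferative gene, 409 and 205 (1.99). Gadd45a, a stress-induced growth arrest gene, had 72.6 and 145 CPM (0.460 to 0.544 as a ratio), and Ccng1 64.0 and 73.3 (0.873). Phlda3, below the floor in both, had 8.26 CPM in beta and 19.2 in alpha cells (ratio 0.430, 0.340 to 0.547).

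Among 32 listed partners of the G1 to S transition, 15 reached the floor in a hormone group. Of 12 tested between beta and alpha cells, 1 was at least 1.5-fold higher and 0 were lower in beta cells, beside 33.9% and 8.53% of all genes. That gene was Fbxw7, a ubiquitin ligase subunit that targets cyclin E, with 51.5 CPM in beta and 30.4 in alpha cells (ratio 1.69, 1.43 to 2.01). Cks1b, a small kinase subunit, had 20.2 and 13.6 CPM (1.49), and Fbxo4, a ubiquitin ligase subunit named for cyclin D1, 23.4 and 27.5 (0.850). The INK4 inhibitors Cdkn2b, Cdkn2c and Cdkn2d, which block Cdk4 and Cdk6, stood at 36.1, 18.2 and 23.3 CPM in beta cells, and Cdkn2a, which rises with age in mouse islets, at 3.99. Rb1 had 18.6 CPM in beta cells, and the cyclin E genes Ccne1 and Ccne2 had 2.16 and 5.77. Some other genes below the floor differed more between beta and alpha cells. E2f1 had 9.07 and 1.22 CPM (ratio 7.46, 3.39 to 20.5) and E2f2 5.08 and 0.810 (6.26, 2.41 to 23.2), with 6 and 4 alpha UMIs. Skp2 and Myc had ratios the other way, 0.419 (0.234 to 0.790) and 0.490 (0.348 to 0.705).

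Of 19 genes named as regulators of beta cell proliferation, 13 were tested between beta and alpha cells, and 8 were at least 1.5-fold higher and 1 lower in beta cells, beside 33.9% and 8.53% of all genes, whose median log2 ratio was 0.36. The list was chosen for beta cells, so its direction is no independent evidence. Prlr, the prolactin receptor, had 175 CPM in beta cells and 5.87 in alpha cells, and free RNA alone could supply all of the 29 alpha UMIs. Igf1r, a growth factor receptor, had 104 CPM in beta and 34.4 in alpha cells (ratio 3.01, 2.58 to 3.53). Klf4, an antiproliferative transcription factor, had 44.8 and 72.7 (0.616), and Trp53, which encodes p53, 38.4 and 53.3 (0.722).

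Dividing cells were rare. Of 29 proliferation genes, 3 reached the floor in a hormone group, and 2 were tested between beta and alpha cells. Pcna, the sliding clamp of DNA replication, had 32.4 and 33.0 CPM in beta and alpha cells, and Tubb5, a tubulin, 75.7 and 122. At least 3 of 16 mitotic genes were present in 6 of 3258 beta cells (0.184%, 0.0676 to 0.400), in 0 of 423 alpha cells, which allows up to 0.709%, and in 9 of the 549 cells without a hormone label. Of the 9, 5 carried lymphocyte markers and 4 macrophage markers. The 6 beta cells had 230 CPM of Cdk4 (144 to 348, 22 UMIs), against 117 in the other beta cells, a ratio of 1.96 (1.22 to 2.96). Their Ccnd2 was 929 CPM against 1044 (0.890, with an interval of 0.715 to 1.0955) and their Cdkn1a 146 against 204 (0.717, 0.392 to 1.20). The 6 cells were also deeper, with a median of 35545.5 UMIs, and a further 21 beta cells held 2 of the 16 genes.

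For each of the 8 genes, the genes most alike in pattern were ranked by Pearson correlation of log2 levels over the 7 populations, among 5480 genes. The populations share a library and its free RNA, so with 7 points these values describe the pattern only. Tollip (0.995) was nearest to Ccnd1, Hint2 (0.989) to Ccnd2 and 0610010K14Rik (0.981) to Ccnd3. Dnajc9 (0.992) was nearest to Cdk4 and 2810474O19Rik (0.987) to Cdk6, whose second was Selplg (0.967), a leukocyte adhesion ligand with 184 CPM in macrophage-marker and 1.05 in beta cells. Zfand5 (0.982) was nearest to Cdkn1a, Cbx5 (0.996) to Cdkn1b and Git2 (0.991) to Cdkn1c.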

How the data were processed

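The authors deposited raw UMI counts for each gene in each barcode, per the file headers and from their whole values. Build mm10 and the read tools FastQC and Trimmomatic are named in the submitters' processing notes. No aligner, counter or annotation is given in the sources used here. The labels' preparation text also describes sorted gut cells, at odds with their islet label. Barcodes were read by their number in the unfiltered WT matrix.

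Among the 3000 largest barcodes, 10% of the UMI count at percentile 99 was the limit for a cell. Hormone genes (Ins1, Ins2, Iapp, Gcg, Sst, Ppy, Pyy and Ghrl) were left out of denominators. Levels have exact Poisson intervals, ratios exact conditional binomial intervals and shares exact Clopper-Pearson intervals, all at 95%. The upper limit for a count of 0 is 3 counts. UMIs are not independent of the cell they come from, so these intervals are too narrow for differences between animals. Genes entered a contrast at 20 CPM in either group. Pattern correlations used log2 of the level plus 5, for genes of at least 50 CPM in any group. Cells were thinned with random seed 7. No doublet caller was run: cells past several hormone limits were kept apart, and cells holding markers of another class were left out as an alternative. The free RNA bound takes all insulin UMIs of other cells, or all Gcg UMIs of beta cells, as free RNA. The ratio step was tested on simulated data.

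Ighd and Amy2b of the marker lists were not used here. The 8 genes and the gene and marker lists were chosen with earlier results of these data known. Named list genes are the 2 highest and 2 lowest ratios of beta over alpha cells per list; other list genes, the marker limits of the unlabelled cells and the Cdkn1a classes were chosen after values were seen. Annotation came from GENCODE M21, which held 27645 of the 27998 gene IDs, and sequences from RefSeq (GRCm38.p6). Python 3.11.15, numpy 2.4.6, scipy 1.17.1, pandas 2.3.3 and matplotlib 3.10.9 were used.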

Additional observations from a re-analysis of the deposited data

How the results depend on the processing

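Of 264 log2 ratios of the 8 genes recomputed under alternative settings, 234 stayed within their counting interval or spread, 28 moved beyond it and 2 changed sign from a ratio past 1.5-fold. The 2 were Ccnd1 in beta over alpha cells, with a log2 ratio of -0.092 when all UMIs were the denominator, and Cdk6 in beta over delta cells, 1.11 without the tenth of cells with the most UMIs, where few Cdk6 UMIs remain. The count of genes beyond 1.5-fold in beta over alpha cells was 1 in place of 2 when cells past several hormone limits took the first match and when ratios were taken relative to the median gene. In beta over delta cells it was 4 in place of 2 with all UMIs as the denominator, and in beta over PP cells 1 in place of 2 relative to the median gene. The count of p53 targets higher with Cdkn1a in beta cells was 7 in place of 4 with a limit of 4 UMIs, and 3 to 4 under the other 4 alternatives, all chosen after the data were seen, as was leaving out cells with markers of another class. Under each of these settings a target could reach the floor only through the cells with more Cdkn1a, so the counts of p53 targets are not read as support. The causes were not tested. No paired analysis was possible because each group has 1 library and the copy of the TG matrix held no cells. Depth limits Cdk6 and Cdkn1c most, with 4 Cdk6 UMIs in delta cells.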
